A study of Sus scrofa with 2 samples.

Results

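Distal calcium, magnesium and chloride handling was described here by 7 genes: SLC12A3, KLHL3, TRPV5, CALB1, SLC8A1, TRPM6 and CNNM2. They were chosen by symbol, as 7 of the 31908 rows of the annotation, and each symbol stood on 1 row. Their RNA was counted in single nuclei of pig renal cortex by unique molecular identifiers (UMIs), so that copies made from the same RNA molecule count once.

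Pig kidneys came from a slaughterhouse, were flushed and cold-stored, and were then perfused at normal body temperature outside the animal, to raise glomerular pressure and filtration. Cortex was taken before perfusion, as the control (unperfused library), or at 120 min of perfusion at 100 mmHg and 37 °C (perfused library). Breed, sex and age are not given in the sources used here, nor whether 1 animal or several gave the cortex. With 1 library of each condition, no test across kidneys could be made and no difference has a replicate check, so every interval below is an exact 95% interval of counting error only.

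After filtering, 6389 unperfused and 5421 perfused nuclei remained, with medians of 3755 and 4383 UMIs, and 14 barcodes occurred in both libraries. The nuclei formed 20 clusters, numbered from 0. The 7 genes and their pathway genes had been left out of the genes used for clustering and of the markers used for naming, so these 7 rows did not build the classes themselves. Classes were named by their likeness to a cell type in listed markers: PT (proximal tubule), LOH (loop of Henle), DCT (distal convoluted tubule), PC (principal cells), IC-A and IC-B (intercalated cells), PODO (podocytes), EC (endothelial cells), STROMA, IMM (immune cells) and cycling cells. A gene's level is given in CPM, its UMIs per 10⁶ UMIs of the class in that library. The counts include reads from introns and the genes differ in length, so levels are compared between nuclei and never between genes.

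In the kidney, the DCT reabsorbs sodium with chloride, and the late DCT and the connecting tubule (CNT) fine-tune calcium and magnesium. Calcium enters these cells through a channel of the apical membrane, is carried by a binding protein and leaves through an exchanger and a pump of the basolateral membrane. Magnesium enters through another apical channel, and its handling depends on a further membrane protein of the basolateral side. SLC12A3 encodes the sodium-chloride cotransporter (NCC), the target of thiazide diuretics, and KLHL3 an adaptor of a ubiquitin ligase that degrades the WNK kinases acting on NCC. TRPV5 is the calcium entry channel, CALB1 the calcium-binding protein calbindin, and SLC8A1 the sodium-calcium exchanger NCX1. TRPM6 is the magnesium entry channel, and CNNM2 a basolateral protein whose mutations cause magnesium wasting.

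A pair of clusters carried most of the distal signal. DCT, with 273 unperfused and 147 perfused nuclei, had 5 of its 10 markers raised (HS6ST3, TMEM52B, EMX1, LHX1 and SLC16A7). Cluster 6, with 518 and 223 nuclei, could not be named. The PC list led with 4 of 9 markers (SCNN1G, SCNN1B, AQP2 and GATA3), fewer than the 50% of a list that a name required. When SLC8A1 and CALB1 were added to the CNT list, that list led with 4 of 11 markers, still too few, so these nuclei are called cluster 6 throughout. By that step cluster 6 was picked for the comparison with DCT, so its high SLC8A1 and CALB1 are a description and no test. DCT made up 4.27% of unperfused and 2.71% of perfused nuclei, and cluster 6 made up 8.11% and 4.11%. DCT and cluster 6 together held 85.7% of the unperfused and 80.6% of the perfused UMIs of SLC12A3. Their part was 83.9% and 71.1% for SLC8A1, 77.2% and 59.6% for CALB1, 78.3% and 39.7% for TRPV5, and 74.1% and 73.2% for KLHL3. It was 42.4% and 31.2% for CNNM2, and only 9.97% and 6.01% for TRPM6.

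**Figure D1:**
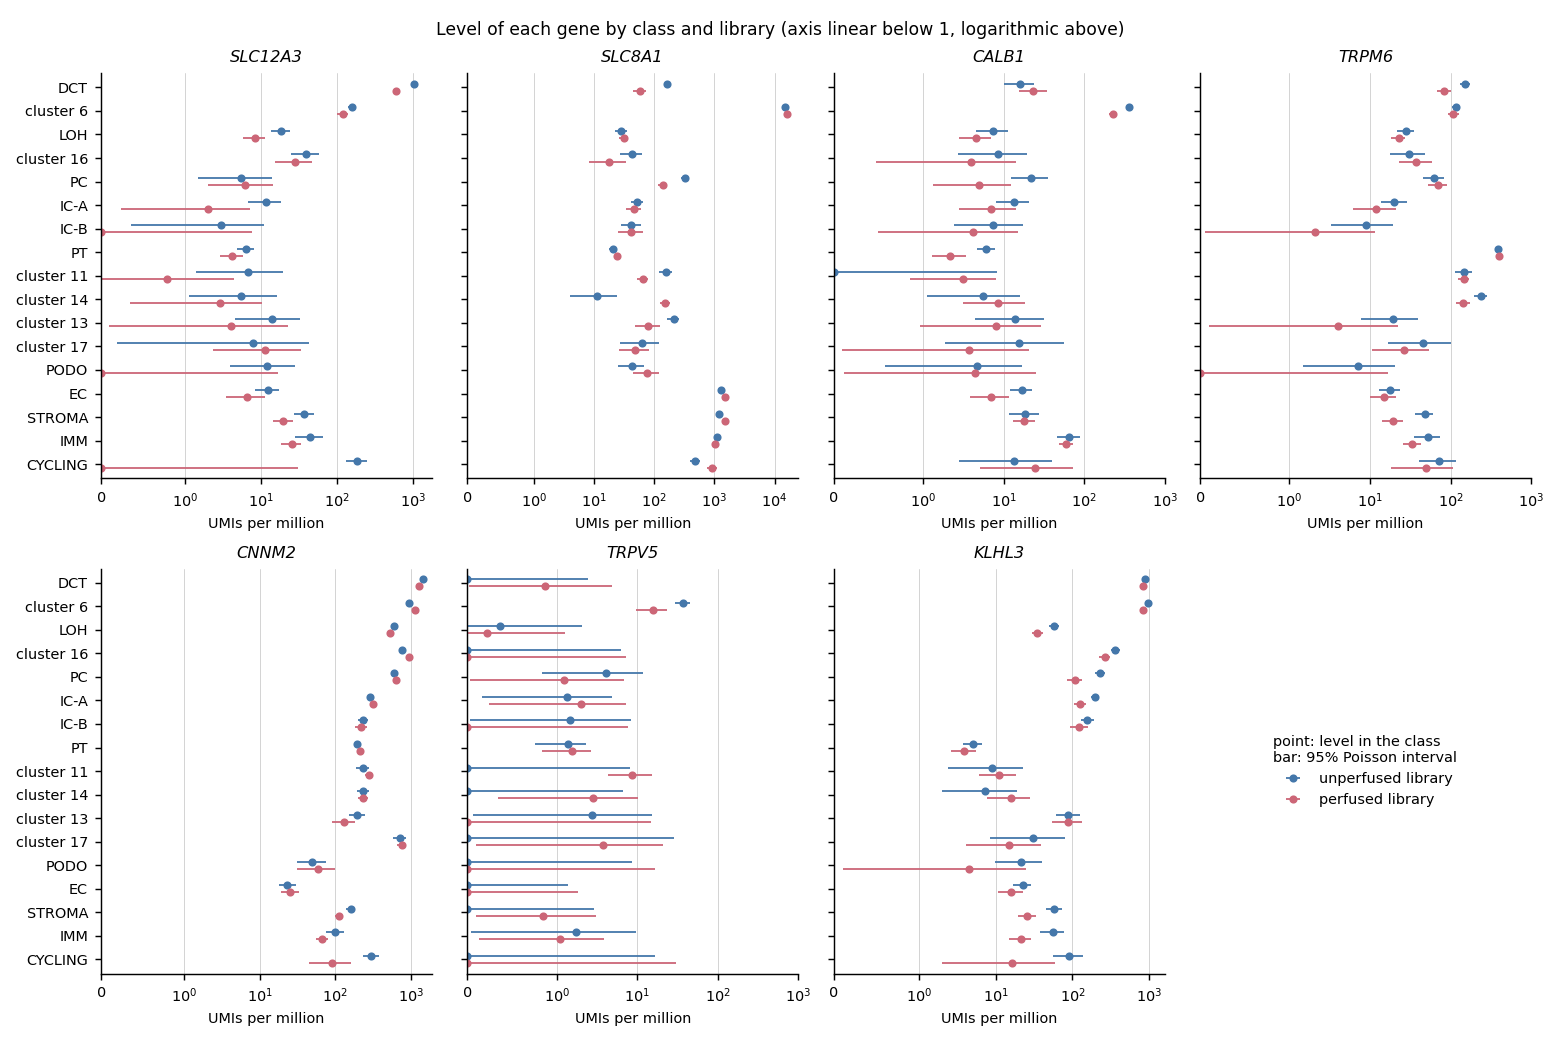
Level of the 7 genes in each named class and each unnamed cluster, in UMIs per 10⁶ on an axis that is linear below 1 and logarithmic above, with blue points for the unperfused and red points for the perfused library and bars for the exact 95% Poisson interval. SLC12A3 stood highest in DCT, SLC8A1, CALB1 and TRPV5 in cluster 6, TRPM6 in PT, and KLHL3 about equally in DCT and cluster 6.

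Of the chloride genes, SLC12A3 (ENSSSCG00000032643) marked the DCT. It was at 1030 CPM in unperfused DCT (980 to 1083) and at 588 CPM in perfused DCT (545 to 634). Cluster 6 followed at 155 and 117 CPM, so that DCT was 6.63 times cluster 6 in the unperfused and 5.03 times in the perfused library. At least 1 UMI was found in 96.3% of unperfused and 95.9% of perfused DCT nuclei. In PT, which is not known to make NCC, the share was 3.49% and 1.91%, at median depths of 5290 and 6623 UMIs against 5554 and 7651 in DCT. Cycling nuclei held 40 SLC12A3 UMIs in 7 of 38 unperfused nuclei (180 CPM) and none in 18 perfused nuclei, which allows a level of up to 24.6 CPM (3 counts) there.

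KLHL3 (ENSSSCG00000014321) did not separate DCT from cluster 6. In the unperfused library it was at 891 CPM in DCT and 960 CPM in cluster 6, and in the perfused library at 817 and 837 CPM. The log2 ratio of DCT over cluster 6 was −0.11 (−0.21 to −0.01) and −0.04 (−0.16 to 0.09). Unnamed cluster 16, whose leading genes included HS6ST3 and the paracellular magnesium channel gene CLDN16, came next at 362 and 263 CPM. PC were at 229 and 106 CPM and IC-A at 198 and 124 CPM. In PT, KLHL3 was at 5.04 and 3.87 CPM, with a UMI in 2.59% and 1.91% of nuclei, against 93.4% and 95.9% in DCT.

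The calcium genes were placed in cluster 6. The row with the symbol TRPV5 has the identifier ENSSSCG00000016469, which a table of gene names pairs with TRPV6, a closely related channel, so its UMIs cannot be assigned to 1 of these channels and are called TRPV5 here as in the annotation. TRPV5 had 83 UMIs in cluster 6 of the unperfused library (interval 29.4 to 45.8 CPM) and 22 in the perfused library (15.6 CPM, interval 9.78 to 23.6). It was found in 9.07% and 8.97% of cluster 6 nuclei (1.56% and 0.905% thinned to 1000 UMIs per nucleus), against 0.787% and 0.998% in PT. DCT held 0 unperfused UMIs, which allows up to 1.98 CPM (3 counts), and 1 perfused UMI. In the perfused library, cluster 6 was not separated by counting error from unnamed cluster 11, where 11 UMIs gave 8.64 CPM (4.31 to 15.5).

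CALB1 (ENSSSCG00000006125) was at 364 CPM in unperfused (340 to 390) and 228 CPM in perfused cluster 6 (204 to 255). In DCT it was at 15.8 and 23.5 CPM, from 24 and 27 UMIs. The second highest class was IMM, at 65.6 and 59.8 CPM, above DCT in both libraries. IMM nuclei were shallow, with medians of 1407 and 1536 UMIs. Their summed PT list was at 3207 and 2387 CPM, against 453 and 369 CPM in DCT. Whether the CALB1 UMIs of IMM came from other cells was not tested. A UMI was found in 29.9% and 28.3% of cluster 6 nuclei (15.2% and 12.2% thinned), and in 3.38% and 1.41% of PT nuclei at greater depth.

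SLC8A1 (ENSSSCG00000036418) was at 14729 CPM in unperfused and 16136 CPM in perfused cluster 6, from 33069 and 22759 UMIs. In DCT it was at 165 CPM (145 to 187) and 57.5 CPM (44.4 to 73.1), a log2 ratio of DCT over cluster 6 of −6.48 and −8.13. SLC8A1 was also found outside the tubule. EC were at 1274 and 1510 CPM, STROMA at 1169 and 1484 CPM, and IMM at 1091 and 1009 CPM, whereas PT was at 20.3 and 24.3 CPM. Within STROMA, cluster 12 was at 2943 and 2650 CPM and cluster 5 at 699 and 1204 CPM. Both had the smooth muscle markers MYH11 and ACTA2 raised, and MYH11 was among the leading genes of cluster 12 only. In EC, cluster 10, whose leading genes included the glomerular endothelial marker EHD3, was lower than cluster 0, at 452 and 649 CPM against 1401 and 1685 CPM.

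Of the magnesium genes, TRPM6 (ENSSSCG00000005269) was highest in PT among the classes and clusters, above DCT and cluster 6 as a whole. It was at 388 CPM in unperfused (376 to 400) and 395 CPM in perfused PT (382 to 409), and PT held 79.1% and 78.9% of its UMIs. Both PT clusters carried it, at 407 and 427 CPM in cluster 1 and 346 and 325 CPM in cluster 3. A UMI was found in 77.7% and 80.0% of PT nuclei, against 3.55% and 3.08% in EC, which are shallower (medians of 1876 and 2208 UMIs). DCT was at 152 and 83.6 CPM and cluster 6 at 118 and 108 CPM. Thinned to 1000 UMIs per nucleus, 31.5% of PT nuclei still had a TRPM6 UMI.

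CNNM2 (ENSSSCG00000010593) was spread over LOH and the distal nephron. It was highest in DCT, at 1470 CPM (1410 to 1532) and 1279 CPM (1214 to 1346), followed by cluster 6 at 942 and 1136 CPM. Unnamed cluster 16 was at 761 and 943 CPM, unnamed cluster 17 at 715 and 764 CPM, PC at 608 and 636 CPM, and LOH at 598 and 541 CPM. In PT it was at 196 and 212 CPM and in EC at 23.2 and 25.3 CPM. A UMI was found in 94.1% and 98.6% of DCT nuclei, against 4.09% and 4.93% of EC nuclei. With size factors from DESeq2, the log2 ratio of DCT over cluster 6 in the perfused library was 0.02, against 0.17 by CPM, so the order of these 2 groups is not settled there.

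Cluster 6 was not uniform for these genes. DCT and cluster 6 were clustered again together at a resolution of 0.5, which gave 5 subclusters. Subcluster 1 held all 420 DCT nuclei and 10 of cluster 6. Subclusters 0 and 2, with 432 and 244 nuclei, came from cluster 6 alone, and so did subcluster 3, with 33 unperfused and 14 perfused nuclei. The 8 nuclei of subcluster 4 are not described further. A cluster drawn from these nuclei cannot be tested against them, so its levels are a description.

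Subcluster 3 combined the chloride gene of the DCT with the calcium and magnesium genes. SLC12A3 was at 840 CPM in its unperfused nuclei (727 to 967) and 807 CPM in its perfused nuclei (654 to 985), 0.816 times the level in unperfused and 1.37 times that in perfused DCT. In the same nuclei SLC8A1 was at 67530 and 64361 CPM, which was 4.17 and 2.78 times the level of subcluster 2. CALB1 was at 1827 and 1505 CPM, 6.76 and 7.77 times subcluster 2. The 3 genes occurred in the same nuclei and not in separate ones: 30 of 33 unperfused and 12 of 14 perfused nuclei had a UMI of each. In DCT, 7 of 273 and 5 of 147 nuclei had all of them, and in cluster 6, 57 of 518 and 20 of 223.

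The magnesium genes were also at their distal maximum there. TRPM6 was at 652 and 504 CPM in subcluster 3, which was 4.30 and 6.04 times DCT. It also exceeded the 388 and 395 CPM of PT, with intervals of 552 to 764 in the unperfused nuclei and 385 to 649 in the perfused nuclei, of which the perfused one overlapped that of PT. CNNM2 was at 2504 and 4128 CPM, 1.70 and 3.23 times DCT. TRPV5 was at 210 CPM, from 49 UMIs in the unperfused nuclei, and at 33.6 CPM, from only 4 UMIs, in the perfused nuclei. KLHL3, at 995 and 673 CPM, showed no such peak.

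By gene, 5 of the 7 were highest of subclusters 0 to 3 in subcluster 3 in both libraries, whereas 8.21% of 12963 genes were. Among the pathway genes fixed beside them, 3 of 13 chloride genes (WNK1, SGK1 and KCNJ16), 2 of 6 calcium genes (ATP2B4 and VDR) and 4 of 15 magnesium genes (among them PCBD1, ATP1B1 and PVALB) had their maximum there too. VDR, the vitamin D receptor, was at 1823 and 1320 CPM in subcluster 3, against 576 and 859 CPM in subcluster 2 and 243 and 225 CPM in DCT. ATP2B4, a plasma membrane calcium pump, was at 240 and 244 CPM, against 89.0 and 88.8 CPM in DCT. The 7 genes and the pathway genes were chosen with earlier results of these data known, so these counts are a description. Of the 5, TRPV5 rested on 4 perfused UMIs, and its perfused log2 ratio over subcluster 2 was 0.87 (−1.28 to 2.71).

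**Figure D2:**
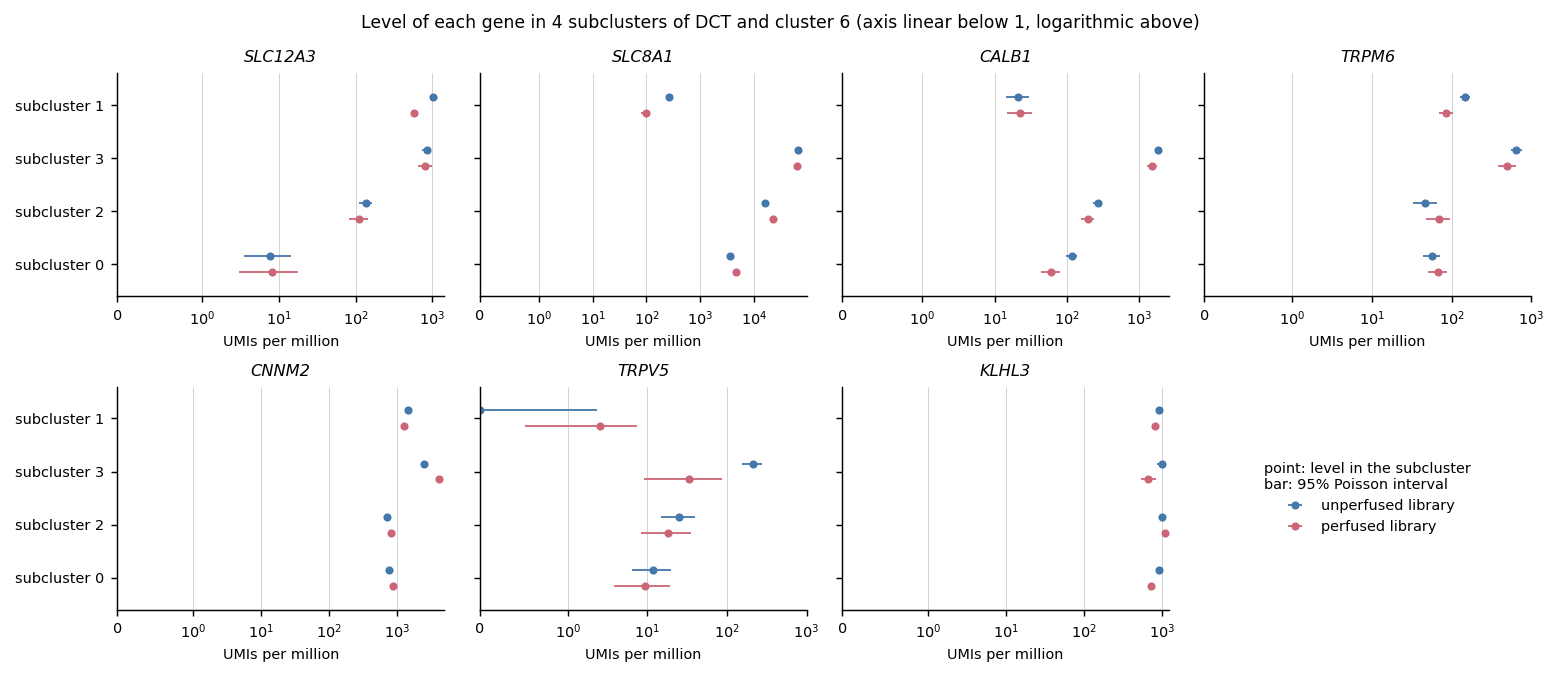
Level of the 7 genes in subclusters 0 to 3 of the joined DCT and cluster 6 nuclei, in UMIs per 10⁶ on an axis that is linear below 1 and logarithmic above, with blue points for the unperfused and red for the perfused library and bars for the exact 95% Poisson interval. Subcluster 3 had SLC12A3 near the level of subcluster 1, which is the DCT, and the highest SLC8A1, CALB1, TRPM6, CNNM2 and TRPV5.

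The DCT markers were unevenly kept in subcluster 3. Of the 10 on the list, 7 were lower than in DCT in both libraries and 1 was higher in both (ACSS3). HS6ST3 differed most among the abundant ones, at 8.58 and 8.41 CPM against 694 and 1151 CPM in DCT. TMEM52B, at 562 and 361 CPM against 607 and 413 CPM, and EMX1, at 176 and 202 CPM against 182 and 230 CPM, were close to their DCT levels. The summed list was 0.559 and 0.455 times that of DCT, and without HS6ST3 0.698 and 0.639 times.

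Of the 9 PC markers, 7 were lower than in cluster 6 in both libraries, and the summed list was 0.200 and 0.286 times that of cluster 6. SCNN1G, a subunit of the epithelial sodium channel and the leading marker of cluster 6, was at 47.2 and 50.4 CPM, against 750 and 1018 CPM in cluster 6. AQP2, the water channel of principal cells, had no unperfused UMI, which allows up to 12.9 CPM (3 counts), and was at 8.41 CPM in the perfused nuclei. The summed LOH list was at 6081 and 8012 CPM, lower than the 8773 and 10123 CPM of DCT. It was higher than the 2115 and 2401 CPM of cluster 6. Of that list, ENOX1 was at 4284 and 6095 CPM, against 4632 and 5272 CPM in DCT. These nuclei were deeper than DCT in the unperfused library, with a median of 7305 against 5554 UMIs, and not in the perfused library, where it was 7252 against 7651. Called doublets had been removed, and whether any of these nuclei are doublets that were missed was not tested.

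The other subclusters of cluster 6 differed as well. SLC12A3 was at 7.61 and 8.08 CPM in subcluster 0, at 135 and 110 CPM in subcluster 2 and at its level near that of DCT in subcluster 3. SLC8A1 followed the same order, at 3674 and 4736 CPM, then 16214 and 23178 CPM, and so did CALB1, at 118 and 60.6 CPM, then 270 and 194 CPM. SCNN1G had the opposite order, at 1007 and 1365 CPM in subcluster 0 and 587 and 730 CPM in subcluster 2. Subcluster 3 made up 6.37% of the unperfused and 6.28% of the perfused nuclei of cluster 6. It held 47.6% and 33.6% of the SLC8A1 UMIs of cluster 6, 52.1% and 55.6% of those of CALB1, and 56.2% and 58.2% of those of SLC12A3. For TRPM6 the part was 57.6% and 39.2%, for TRPV5 59.0% and 18.2%, and for KLHL3 10.8% and 6.78%.

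Single nuclei carried very unequal numbers of SLC8A1 UMIs. In cluster 6 the lowest, median and highest counts were 0, 8 and 1386 in the unperfused library, and 0, 18 and 2131 in the perfused library. In subcluster 3 the medians were 501 and 462. SLC12A3 was far less uneven, with a median of 5 and a highest count of 20 in unperfused DCT, and 4 and 13 in perfused DCT.

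**Figure D3:**
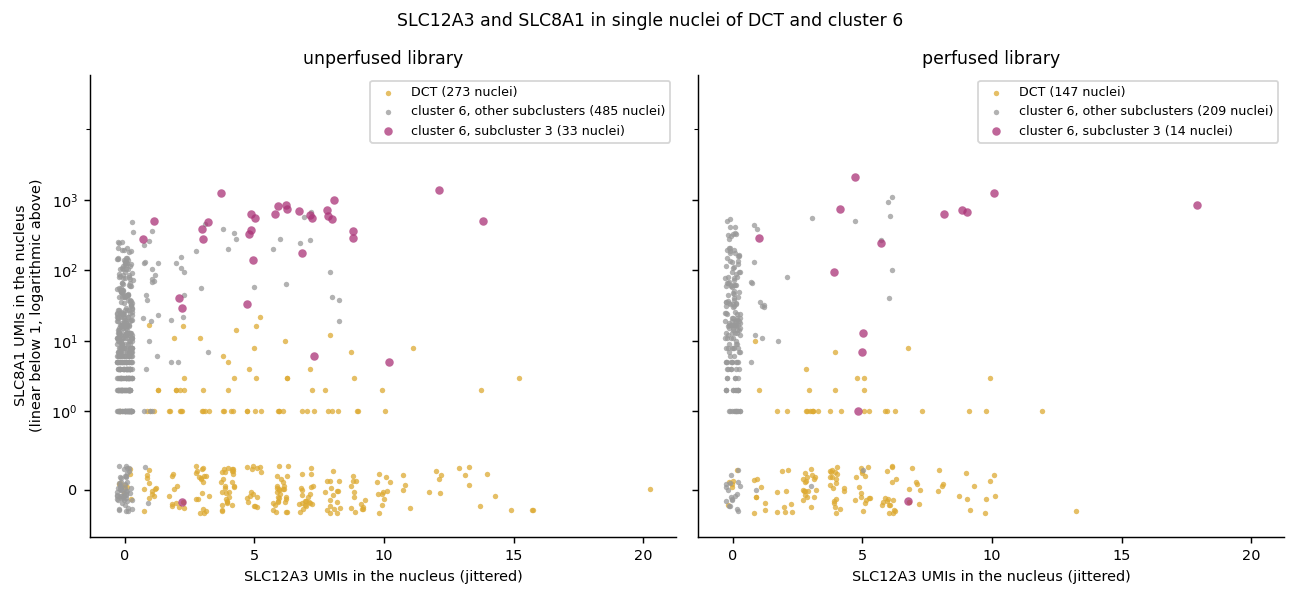
UMIs of SLC12A3 (x axis, jittered) and SLC8A1 (y axis, linear below 1 and logarithmic above) in each nucleus of DCT (yellow), subcluster 3 (purple) and the rest of cluster 6 (grey), for the unperfused library on the left and the perfused on the right. Most DCT nuclei had SLC12A3 with little SLC8A1, most of cluster 6 the reverse, and most subcluster 3 nuclei many UMIs of both, up to 1386 and 2131 of SLC8A1.

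An unnamed row, ENSSSCG00000050402, was among the 2000 variable genes and had the same pattern as SLC8A1, so SLC8A1 could have shaped the subclusters through it. Without that row, 46 of the 47 nuclei of subcluster 3 came together again in a subcluster of 48. At a resolution of 1.0 a subcluster of 52 nuclei had the same profile, with SLC12A3 at 806 CPM and SLC8A1 at 61375 CPM over both libraries. At a resolution of 0.3 it was not separated: the subcluster richest in SLC8A1 had 237 nuclei and SLC12A3 at 342 CPM.

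The libraries were then compared within DCT and within cluster 6, with the perfused CPM divided by the unperfused CPM on the log2 scale. A difference of at least 1.5-fold was counted, among genes with at least 20 UMIs in both libraries together. In DCT, 3 of the 6 genes with enough UMIs were lower in the perfused library by that measure (SLC12A3, SLC8A1 and TRPM6) and 0 were higher. Of 10333 genes, 15.2% were lower and 6.17% higher, and the median log2 ratio was −0.05 over all genes and −0.50 over the 6.

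SLC12A3 showed the clearest difference. Its 1563 unperfused and 676 perfused UMIs in DCT gave 1030 and 588 CPM, a log2 ratio of −0.81 (−0.94 to −0.68). Per nucleus, the quartiles of its CPM were 659, 949 and 1391 in unperfused and 411, 558 and 769 in perfused DCT, so the middle ranges of nuclei overlapped. Thinned to 1000 UMIs per nucleus, which left out 2 unperfused and 3 perfused nuclei, 65.3% and 49.3% of DCT nuclei had a SLC12A3 UMI, against 96.3% and 95.9% unthinned. The richest 5 nuclei held only 5.25% and 8.14% of the UMIs. In subcluster 3 the log2 ratio was −0.06 (−0.43 to 0.30), and the difference between both ratios was not tested.

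TRPM6 in DCT was at 152 CPM (230 UMIs) and 83.6 CPM (96 UMIs), a log2 ratio of −0.86 (−1.22 to −0.51). The richest 5 nuclei held 19.6% and 29.2% of these UMIs, and with nuclei thinned to 1000 UMIs the ratio was −0.18. In PT, which holds most TRPM6, the ratio was 0.03 (−0.04 to 0.10). SLC8A1 in DCT had 250 and 66 UMIs, a log2 ratio of −1.52 (−1.94 to −1.12), and a UMI was found in 25.3% and 21.1% of nuclei (9.96% and 5.56% thinned), but the richest 5 nuclei held 34.0% and 48.5% of the UMIs. Its ratio went from −0.78 to −4.82 with other settings. CNNM2 (−0.20, −0.30 to −0.11) and KLHL3 (−0.13, −0.25 to −0.004) stayed within 1.5-fold.

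CALB1 in DCT had 24 and 27 UMIs and a log2 ratio of 0.57 (−0.28 to 1.43), of which 19 perfused UMIs came from 5 nuclei. It turned negative at both other resolutions, with doublets kept and without the mitochondrial limit. TRPV5 had too few UMIs in DCT for a ratio.

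In cluster 6, 2 of the 7 genes were lower in the perfused library by at least 1.5-fold (CALB1 and TRPV5) and 0 were higher. Of 11143 genes, 17.6% were lower and 5.56% higher, and the median log2 ratio was −0.07 over all genes and −0.20 over the 7. CALB1 went with 818 and 322 UMIs from 364 to 228 CPM, a log2 ratio of −0.67 (−0.86 to −0.49). TRPV5 had a log2 ratio of −1.24 (−1.99 to −0.55). Without subcluster 3, which was chosen after seeing the data, TRPV5 was at −0.28, so its difference rested on the 49 and 4 UMIs of 33 and 14 nuclei, and CALB1 was at −0.82.

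The other genes of cluster 6 stayed within 1.5-fold. SLC8A1 was at 0.13 (0.11 to 0.16), although 1 perfused nucleus alone had 2131 UMIs, and without the richest nucleus of each library the ratio was 0.06. CNNM2 was at 0.27 (0.18 to 0.36), KLHL3 at −0.20 (−0.30 to −0.10), SLC12A3 at −0.41 (−0.69 to −0.14) and TRPM6 at −0.12 (−0.41 to 0.18). In subcluster 3 the log2 ratio was 0.72 for CNNM2 (0.54 to 0.90), −0.57 for KLHL3 (−0.95 to −0.19) and −0.28 for CALB1 (−0.54 to −0.02).

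**Figure D4:**
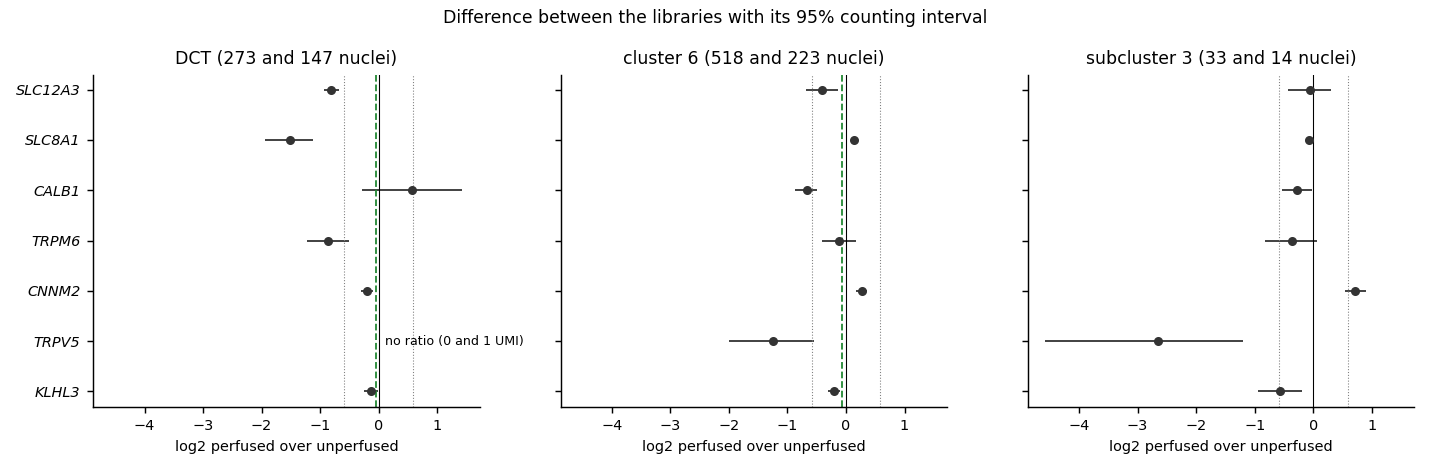
Log2 of perfused over unperfused CPM of the 7 genes in DCT, cluster 6 and subcluster 3, with points for the ratio and bars for its 95% counting interval; dotted lines mark 1.5-fold and, in the first and second panels, the green dashed line marks the median of all genes. SLC12A3, SLC8A1 and TRPM6 in DCT and CALB1 and TRPV5 in cluster 6 lie below the lower dotted line.

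Outside DCT and cluster 6, KLHL3 was lower in the perfused library by at least 1.5-fold in 6 of the 9 named classes with at least 20 of its UMIs. Where it was most abundant, the log2 ratio was −1.11 in PC (−1.50 to −0.73) and −0.67 in IC-A (−0.99 to −0.37). At unperfused levels of 57.4 CPM in LOH, 57.2 CPM in STROMA and 55.2 CPM in IMM, it was −0.72 (−1.05 to −0.39), −1.15 (−1.67 to −0.64) and −1.38 (−2.09 to −0.66). Cycling nuclei, with 20 and 2 UMIs, were at −2.45 (−5.60 to −0.41). SLC12A3 was also lower in each of the 6 named classes outside DCT with enough UMIs (LOH, PT, EC, STROMA, IMM and cycling nuclei). The interval excluded 0 in 4 of these 6, but not in PT (−1.24 to 0.03) or EC (−1.97 to 0.05). In LOH it went from 18.2 to 8.17 CPM (−1.15, −1.81 to −0.50). CALB1 was lower in 5 of 7, among them PT, from 6.13 to 2.18 CPM (−1.49, −2.34 to −0.72), and the interval excluded 0 in 3 of these 5. For these classes, the share of all genes past 1.5-fold was not counted. Over all nuclei together, the log2 ratio was −1.12 for SLC12A3, −0.92 for CALB1 and −0.73 for KLHL3. Unperfused SLC12A3 was at only 6.23 CPM in PT and 12.15 CPM in EC, against 1030 CPM in DCT. Free RNA was not removed, and its part in the ratios of these classes was not tested. SLC8A1 was lower in PC, at −1.20 (−1.54 to −0.88), from 235 and 113 UMIs. It was higher in cycling nuclei, at 0.97 (0.58 to 1.37), and in PODO, at 0.84 (−0.21 to 1.88). The cycling nuclei differed in their summed lists, with STROMA at 243 and 1684 CPM, IMM at 711 and 2169 CPM and PT at 2877 and 1577 CPM. In unnamed cluster 14, SLC8A1 was at 3.81 (2.64 to 5.28), from 6 and 108 UMIs. In unnamed clusters 11, 13 and 16, SLC8A1 was at −1.27, −1.40 and −1.24. It was at 0.24 in EC (0.17 to 0.32), 0.34 in STROMA (0.26 to 0.43) and −0.11 in IMM (−0.24 to 0.02). CNNM2 was at −0.15 in LOH (−0.24 to −0.05) and 0.11 in PT (0.02 to 0.20).

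Depth and other markers moved with the libraries. The median depth of DCT was 5554 UMIs unperfused and 7651 perfused, and that of cluster 6 was 4000 and 5892. In DCT the summed PT list was at 453 and 369 CPM (2 of 10 markers higher in perfused), the LOH list at 8773 and 10123 CPM (6 of 9) and the IMM list at 163 and 155 CPM (5 of 11). In cluster 6 the same lists were at 615 and 506 CPM (1 of 10), 2115 and 2401 CPM (7 of 9) and 201 and 280 CPM (8 of 11), and no marker of these lists was at 0 in either group. Their part in the differences was not tested.

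The pathway genes showed mostly small differences. Of the chloride list, which holds NCC regulators and basolateral chloride and potassium channels, 13 genes were tested in DCT: 2 were lower by at least 1.5-fold and 0 higher, near the 15.2% and 6.17% of all genes. The lower genes were SGK1, an aldosterone-induced kinase, with 50 and 21 UMIs (log2 ratio −0.85, −1.66 to −0.09), and HSD11B2, the enzyme that shields the mineralocorticoid receptor from cortisol, with 83 and 37 UMIs (−0.76, −1.36 to −0.19). The kinase gene WNK1 was at −0.28 (−0.42 to −0.14), STK39, encoding the kinase SPAK that phosphorylates NCC, at −0.03 (−0.15 to 0.10), and NR3C2, the mineralocorticoid receptor, at 0.16 (0.09 to 0.23). In cluster 6, 0 of 12 chloride genes passed 1.5-fold, where 17.6% of all genes were lower and 5.56% higher, and NEDD4L, a ubiquitin ligase of the sodium channel, was highest at 0.34 (0.29 to 0.40).

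Of the calcium list, 4 genes had enough UMIs in DCT and none passed 1.5-fold. In cluster 6, 1 of 5 was lower, near the 17.6% of all genes: S100G, the small calcium-binding protein calbindin-D9k, with 22 and 3 UMIs (−2.20, −4.59 to −0.47). VDR was at 0.22 (0.09 to 0.34) in cluster 6 and −0.11 (−0.34 to 0.12) in DCT.

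Of the magnesium list, 1 of 13 genes was lower in DCT, below the 15.2% of all genes, the transporter gene SLC41A1 with 26 and 10 UMIs (−0.98, −2.19 to 0.12). In cluster 6, 2 of 13 were higher (SLC41A1 and CNNM4) and 1 lower (SLC41A3), beside 5.56% and 17.6% of all genes, each from fewer than 30 UMIs a library and with an interval that includes 0. TRPM7, the channel related to TRPM6, was at −0.01 (−0.08 to 0.07) in DCT, and EGF, whose product stimulates TRPM6, at −0.04 (−0.12 to 0.05). Over all pathway genes tested, 30 in each group of nuclei, the median log2 ratio was −0.005 in DCT and 0.03 in cluster 6. The chosen genes had lower medians, −0.50 over the 6 tested in DCT and −0.20 over the 7 in cluster 6.

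**Figure D5:**
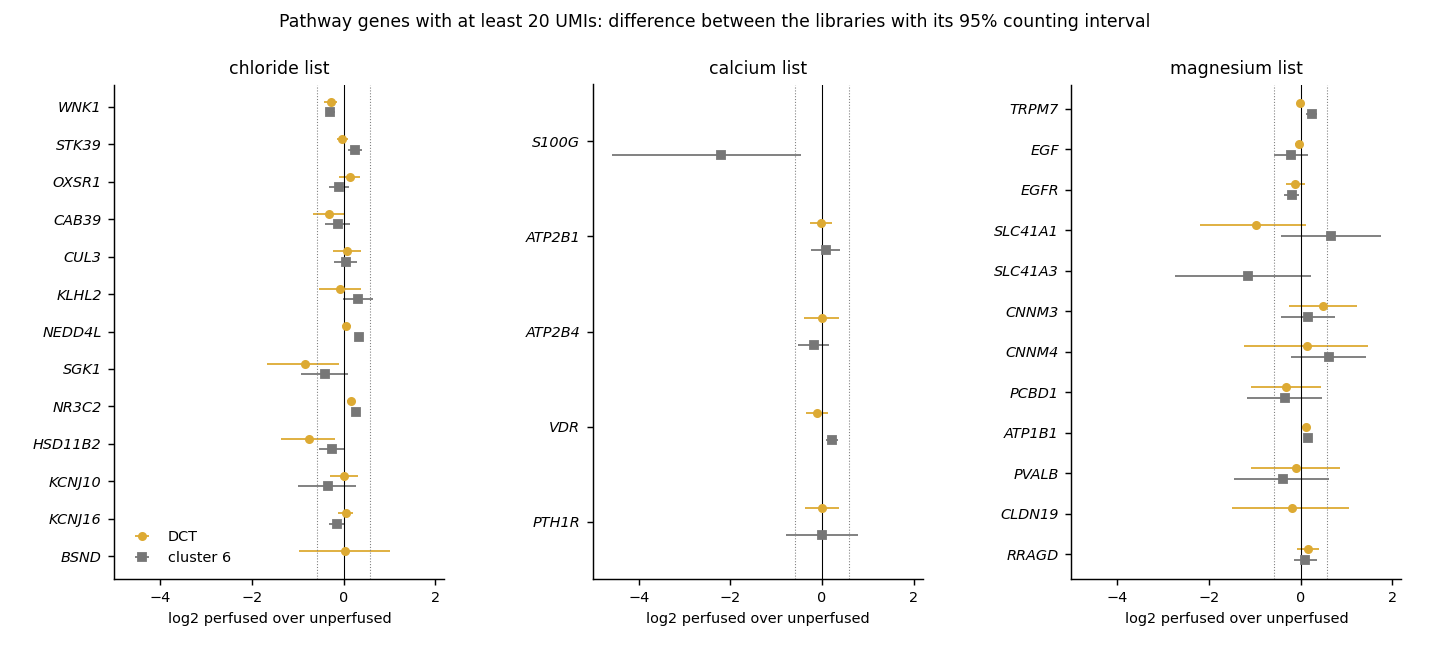
Log2 of perfused over unperfused CPM of chloride, calcium and magnesium pathway genes with at least 20 UMIs (not every such gene is drawn), in DCT (yellow circles) and cluster 6 (grey squares), with bars for the 95% counting interval and dotted lines at 1.5-fold. Most genes lie between the dotted lines; S100G in cluster 6 lies lowest, at −2.20.

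The genes most alike to each of the 7 over the 11 named classes in both libraries (22 values of log2 of CPM plus 1) were listed as a description, since values of a library share its depth and free RNA. SLC12A3 was most like ETV4 (Pearson r 0.93), SALL3 (0.90) and LRFN2 (0.87), all highest in DCT. TRPM6 was most like the PT genes UPP2 (0.93) and SARDH (0.88), then HLF (0.86). CNNM2 was most like DCLRE1C (0.95), PTPN3 (0.94) and SIM1 (0.94), and KLHL3 like PAK5, RIC1 (both 0.90) and PIP5K1B (0.88).

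The named classes leave out cluster 6, and without it SLC8A1 was most like genes of stroma and endothelium: TPM4 (0.94), EMID1 (0.94) and ADAMTS12 (0.93). CALB1 was most like SLC25A6 (0.87), ATP5F1A (0.86) and the mitochondrial gene ATP8 (0.86), each highest in IMM. TRPV5 was most like LRATD1 (0.78), ANKRD45 (0.78) and FAM3C (0.75), on few UMIs. With the unnamed clusters added, a choice made after seeing the data that gives 34 values, CALB1 and SLC8A1 were each other's most alike gene (0.77).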

How the data were processed

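Nuclei of 1 unperfused and 1 perfused pig renal cortex were profiled by 10x 3′ single-nucleus RNA-seq. The authors aligned reads with Cell Ranger 5.0.1 to an Ensembl pig reference, introns included, and deposited raw UMI counts per gene and barcode: 34415254 UMIs in 7179 unperfused and 35525592 in 6205 perfused barcodes. Barcodes were kept at 500 to 6000 genes and a mitochondrial share of at most 7%. Doublets called by Scrublet (scanpy 1.11.5) were removed, 641 and 489. Ambient RNA was not removed, since counts of empty droplets were not used here. Libraries were integrated in Seurat 5.3.0 (R 4.3.3) with 2000 variable genes, 30 anchor dimensions and 15 principal components, at a resolution of 0.5.

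Each marker list was scored by the mean of its 3 highest log2 folds (offset 5 CPM) against the remaining nuclei. A cluster took the name of the highest-scoring list if at least 3 markers and 50% of those with a row were raised. Markers of another list were not to outnumber its own in the top 10 genes. A cluster of low relative depth also needed a marker of its own list among these genes. A marker was raised with a log2 fold over 1 and a UMI in at least 10% of nuclei. The planned CNT comparisons were made in cluster 6, which no list named. It was picked because the CNT list led there once SLC8A1 and CALB1 were added to that list. In all, 14 clusters took 1 of 11 names and 6 stayed unnamed.

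UMIs were summed per class and library and given as CPM. Intervals are Poisson for a CPM, Clopper-Pearson for a share and conditional binomial for a ratio. A count of 0 was set to 3 counts for a bound. No p-value was computed, because nuclei are not replicates. The ratio and its interval were tested on simulated data, with no outcome reported here. The interval treats UMIs as independent counts and leaves out the spread between nuclei. The 7 genes, the pathway lists (47 genes, of which 5 were not analysed here, among them WNK4, TRPV6, KL and FXYD2; a few others are in the counts but are not reported here by name) and the naming markers were chosen with earlier results of these data known. Named genes are the 7, pathway genes, naming markers and the 3 most alike genes of each of the 7, among genes with at least 100 UMIs. The genes said to lead a cluster (CLDN16, MYH11, ACTA2 and EHD3) and ENSSSCG00000050402 were named after their values were seen.

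Alternatives were no integration, the 7 genes among the variable genes, resolutions of 1.0 and 0.3, no mitochondrial limit, doublets kept, TMM factors (edgeR 4.0.16), size factors (DESeq2 1.42.0), free RNA subtracted, the richest nucleus of each library left out, nuclei with a UMI of another lineage left out, nuclei thinned to 1000 UMIs, and other minimum counts. Chosen after seeing the data were free RNA from LRP2 and CUBN alone, cluster 6 without subcluster 3, other resolutions of the subclusters, subclusters without the row ENSSSCG00000050402, and alike genes over unnamed clusters too.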

Additional observations from a re-analysis of the deposited data

Results flagged for a closer look

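For a pair of the 7 genes, the log2 ratio of perfused over unperfused had opposite directions in DCT and in cluster 6, with neither interval including 0. The difference between both groups of nuclei was not tested, because each condition has 1 library. SLC8A1 was at −1.52 (−1.94 to −1.12) in DCT, from 250 and 66 UMIs, and at 0.13 (0.11 to 0.16) in cluster 6, from 33069 and 22759 UMIs. The cluster 6 ratio of SLC8A1 was 0.06 without the richest nucleus of each library, which lies outside that counting interval. CNNM2 was at −0.20 (−0.30 to −0.11) in DCT and 0.27 (0.18 to 0.36) in cluster 6. Without the nuclei in which a marker of another lineage was found, CNNM2 was at 0.24 in DCT and no longer opposite. That setting kept only 106 of 273 unperfused and 44 of 147 perfused DCT nuclei.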

How the results depend on the processing

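No paired analysis was possible because each condition has 1 library. Of 504 recomputed values, 384 stayed within counting error or, for counts, within 1.5 times, and 120 moved. SLC12A3 in DCT kept its direction and stayed past 1.5-fold, from −0.71 to −1.02. In cluster 6, SLC8A1 stayed between 0.06 and 0.44 and CALB1 between −0.82 and −0.25. SLC8A1 in DCT ranged from −4.82 to −0.78, TRPM6 in DCT from −3.06 to −0.18, and CALB1 in DCT from −1.56 to 2.68. In DCT, 1 gene was higher (CALB1) instead of 0 without integration, with TMM or DESeq2 factors and with free RNA subtracted by LRP2 and CUBN, and 4 instead of 3 were lower, CALB1 added, at a resolution of 0.3, with doublets kept and without the mitochondrial limit. In cluster 6, 1 instead of 0 was higher with thinned nuclei, and 1 instead of 2 was lower with thinned nuclei, without the mitochondrial limit, without nuclei of another lineage and without subcluster 3. DCT exceeded cluster 6 by 1.5-fold for 1 instead of 2 unperfused genes with TMM or DESeq2 factors, 4-gene free RNA subtracted or nuclei of another lineage left out. TMM factors shifted the log2 ratio of DCT over cluster 6 by 0.11 and 0.09, and DESeq2 factors by 0.10 and 0.15. Among all genes, 926 instead of 1575 were lower in DCT and 1142 instead of 1957 in cluster 6 when each library needed 10 UMIs. With no filter, 3943 were higher and 4880 lower in DCT, and 5063 and 4594 in cluster 6. Thinned to 1000 UMIs, the share of nuclei with a UMI went from 96.2% to 59.8% for SLC12A3 and 95.7% to 64.1% for CNNM2 in DCT, from 78.6% to 31.5% for TRPM6 in PT, and in cluster 6 from 89.3% to 74.6% for SLC8A1, 29.4% to 14.3% for CALB1, 9.04% to 1.36% for TRPV5 and 88.7% to 57.2% for KLHL3. The cause of these shifts was not tested, other than fewer UMIs per nucleus in the thinned shares. Depth limits TRPV5 most, with 106 and 58 UMIs in all.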
